A study of Homo sapiens with 9 samples.

Results

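NF-kB feedback, subunit and target genes were followed in A375R cells, a human melanoma line resistant to the BRAF inhibitor PLX4032. The 10 genes were chosen by name: the feedback inhibitors NFKBIA and TNFAIP3, the subunit genes NFKB1, NFKB2 and RELB, the ubiquitin ligase gene BIRC3, the chemokine genes CXCL8, CXCL1 and CXCL2, and the adhesion molecule gene ICAM1. All 10 were found among the 62710 genes of the table, and all 10 were among the 15230 genes with a mean normalized count of at least 10 that entered the tests. The control group, labelled WT and described as DMSO in the series' design, had no dose in its labels. A time of 2 h stood in the column headers of control replicates 2 and 3, and not in that of replicate 1. VHL-r, the part of the compound that binds the ubiquitin ligase VHL, was given alone at 10 µM for 2 h. R4VPL3-1, the full compound that links a VHL recruiter to a part binding the ubiquitin ligase RNF4, was given at the same dose for the same time. Each group had 3 libraries described as biological replicates, all from this 1 resistant line, which the study keeps in medium with 2 µM PLX4032.

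NF-kB transcription factors are dimers held inactive in the cytoplasm by inhibitor proteins of the IkB family. Receptors for inflammatory ligands activate a kinase complex that marks IkB for degradation, and the freed dimers enter the nucleus. Among their targets are the genes of their own inhibitors, so that the response is self-limiting, and genes of chemokines that attract leukocytes. In melanoma, CXCL8 and CXCL1 are known as chemokines secreted by the tumour cells themselves.

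The deposited values are normalized counts, the reads of a gene divided by a size factor of its library. Total reads per library lay between 26435568 and 32085626. On the third principal component of the log2 values, which held 9.11% of the variance, replicate 3 of each treatment scored between 10.3 and 16.2, and the other 6 libraries scored below 0. Of 8 melanocyte lineage markers, 5 had a mean of at least 10, with SOX10 at 7900 to 17935, while MLANA was at 0 in all 9 libraries and TYR at 2.14 or less. The summed level of the 8 markers was 20733 to 22517 in DMSO, 11788 to 14670 in VHL-r and 10359 to 12525 in R4VPL3-1. Most of this sum was SOX10, at 17007 to 17935 in DMSO and 7900 to 11216 in the treated libraries. MITF was also lower in every treated library, whereas DCT, S100B and PMEL overlapped DMSO in both treatments. The 4 epithelial and keratinocyte markers summed to 351 to 394 in DMSO, 303 to 321 in VHL-r and 251 to 300.5 in R4VPL3-1. Most of this sum was KRT14, at 331 to 365 in DMSO, 275 to 303 in VHL-r and 224 to 280 in R4VPL3-1. EPCAM, KRT5 and CDH1 were at 24.2 or less in every library and overlapped DMSO in both treatments. The 4 fibroblast markers summed to 1405 to 3101 and the 3 endothelial markers to at most 32.6. The part of these shifts in the results was not tested. All 9 libraries came from 1 cell line. In its bulk RNA, fewer cells expressing a marker and less of its RNA per cell cannot be told apart. The 6 leukocyte markers summed to at most 30.8 in any library, so that transcripts of immune cells were near the floor.

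The chemokine genes fell in both treatments. CXCL1, which encodes a neutrophil-attracting chemokine, was lower by 4.08-fold after VHL-r and by 5.95-fold after R4VPL3-1. CXCL8, the gene of interleukin 8, was lower by 2.11-fold and 2.37-fold. The feedback gene TNFAIP3 and the survival gene BIRC3 also fell in both groups, whereas NFKB2 and ICAM1 passed the test in neither. Between the compounds, NFKBIA and CXCL1 passed the test, both lower after R4VPL3-1 than after VHL-r, with 3 of 3 libraries below.

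In VHL-r against DMSO, 7 of the 10 genes passed the test (limma on log2(normalized count + 1), adjusted p of at most 0.05 over all 15230 genes), 0 of them higher and 7 lower. Over all tested genes the share called was 19.8%, with 10.3% higher and 9.51% lower. In R4VPL3-1 against DMSO, 7 of the 10 passed, all lower, beside 24.9% of all genes, 13.1% higher and 11.8% lower. The median log2 fold change of the 10 genes was -0.58 after VHL-r and -0.66 after R4VPL3-1, where the medians of all genes were -0.0045 and -0.0063. Both comparisons use the same 3 DMSO libraries. In R4VPL3-1 against VHL-r, 2 of the 10 passed, both lower, beside 1.87% of all genes, 1.14% higher and 0.729% lower. There the median of the 10 genes was -0.13, and that of all genes -0.0056.

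Groups that did not overlap were frequent among all genes as well. The 3 libraries of one group lay wholly above or below those of the other for 8 of the 10 genes in VHL-r against DMSO, beside 34.3% of all genes. For R4VPL3-1 against DMSO the count was 8 of 10, beside 38% of all genes. For R4VPL3-1 against VHL-r it was 4 of 10, beside 14.1% of all genes.

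CXCL1 (chr4:73869393-73871308, GRCh38) had normalized counts of 1965, 1953 and 1769 in the DMSO libraries. The VHL-r libraries held 477, 455 and 458, and the R4VPL3-1 libraries 285, 306 and 366. All treated libraries were far below all controls, and each R4VPL3-1 library was below each VHL-r library. The log2 fold change was -2.03 (SE 0.082, adjusted p = 4.75e-13) for VHL-r and -2.57 (adjusted p = 6.55e-15) for R4VPL3-1. Ordered from the most negative fold change of the 15230 genes, CXCL1 took rank 11 after VHL-r and rank 9 after R4VPL3-1. Between the compounds the log2 difference was -0.54 (95% interval -0.72 to -0.37, adjusted p = 0.000344), at rank 192.

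CXCL8 (chr4:73740519-73743716) had 1652, 1868 and 1678 normalized counts in DMSO. VHL-r gave 746, 842 and 879, and R4VPL3-1 gave 668, 705 and 825. The treated groups lay below the controls and overlapped each other. CXCL8 had a log2 fold change of -1.08 (SE 0.079, adjusted p = 3.14e-09) after VHL-r and -1.24 (adjusted p = 1.87e-10) after R4VPL3-1. The difference between the compounds, -0.17 (95% interval -0.33 to -0.0032), had an adjusted p of 0.489.

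CXCL2 (chr4:74097040-74099196, minus strand), a close relative of CXCL1, was the least expressed of the 10 genes, with 8 to 49 reads per library. Its normalized counts were 27.2, 48.2 and 44.6 in DMSO, 18.0, 25.2 and 14.3 in VHL-r, and 8.40, 7.96 and 8.56 in R4VPL3-1. No library of one group overlapped another group. The log2 fold change after R4VPL3-1 was -2.10 (SE 0.30, adjusted p = 2.18e-05) and held under every alternative that tested it. After VHL-r it was -1.02 (adjusted p = 0.0206), and this call was lost in 6 of 20 alternatives, among them those without DMSO replicate 2 (adjusted p = 0.115), without VHL-r replicate 3 (adjusted p = 0.0882) and without replicate 3 of each treatment (adjusted p = 0.182). The log2 difference between the compounds was -1.08 (95% interval -1.71 to -0.45), with an adjusted p of 0.0806.

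The 3 chemokine genes lie in one cluster on chromosome 4, with 125676 bases between CXCL8 and CXCL1 and 225731 between CXCL1 and CXCL2. CXCL1 and CXCL2 were 83.7% identical over their canonical transcripts, but none of the 100-base windows of either transcript occurred in another gene. Their promoter stretches, taken from RefSeq (GRCh38.p14), are shown because the letters of the kB motif, the sequence NF-kB dimers bind, recur in them. Each stretch ends at the base before the gene start of the deposited table and is written 5′ to 3′ on the strand of the gene (CXCL1 chr4:73869193-73869392, plus strand; CXCL2 chr4:74099197-74099395, minus strand; CXCL8 chr4:73740369-73740518, plus strand). Capitals mark matches of the kB consensus in CXCL1 and CXCL2, where 2 overlapping matches share one run, and of the shorter form GGNNNTTCC in CXCL8.
CXCL1: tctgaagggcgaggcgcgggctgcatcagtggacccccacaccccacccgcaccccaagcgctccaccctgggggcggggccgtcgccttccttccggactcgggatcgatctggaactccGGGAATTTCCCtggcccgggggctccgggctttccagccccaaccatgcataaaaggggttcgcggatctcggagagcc
CXCL2: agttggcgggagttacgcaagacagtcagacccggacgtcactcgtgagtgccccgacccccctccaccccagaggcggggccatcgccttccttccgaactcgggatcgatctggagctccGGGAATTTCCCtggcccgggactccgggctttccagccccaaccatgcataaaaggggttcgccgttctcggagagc
CXCL8: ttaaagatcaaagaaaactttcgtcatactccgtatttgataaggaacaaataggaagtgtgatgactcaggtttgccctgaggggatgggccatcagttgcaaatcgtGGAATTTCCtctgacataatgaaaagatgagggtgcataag
The run of capitals is the same in CXCL1 and CXCL2, and the 200 bases before the RefSeq start were 77.2% identical between them, beside 44.5% between CXCL1 and CXCL8. Of the 9 genes with a promoter window, CXCL8 alone matched TGANTCA, the AP-1 motif, which occurred in 7.71% of all promoters.

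TNFAIP3 (chr6:137867214-137883314) encodes A20, a ubiquitin-editing enzyme that shuts off signalling to the kinase complex. Normalized counts were 575, 524 and 553 in DMSO, 256, 267 and 227 in VHL-r, and 212, 194 and 216 in R4VPL3-1. Every treated library was below every control, and the lowest VHL-r library was above the highest R4VPL3-1 library. TNFAIP3 had a log2 fold change of -1.14 (SE 0.093, adjusted p = 1.43e-08) after VHL-r and -1.40 (adjusted p = 3.24e-10) after R4VPL3-1. Between the compounds it was -0.27 (95% interval -0.46 to -0.074), which did not pass the test (adjusted p = 0.221).

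NFKBIA (chr14:35401079-35404749, minus strand) encodes IkBα, the inhibitor that is resynthesized after each round of activation. DMSO libraries held 631, 681 and 741 normalized counts, VHL-r libraries 768, 762 and 816, and R4VPL3-1 libraries 550, 521 and 577. The VHL-r libraries were above all controls and the R4VPL3-1 libraries below all of them. Against DMSO, NFKBIA fell after R4VPL3-1, with a log2 fold change of -0.31 (adjusted p = 0.00277). The VHL-r value was 0.19 (95% interval 0.042 to 0.35, adjusted p = 0.068), which passed in 2 of 21 alternatives, among them the one without DMSO replicate 3 (adjusted p = 0.0287). R4VPL3-1 against VHL-r, a comparison at matched dose and time of compounds that differ by the RNF4-binding part and linker, gave a log2 difference of -0.51 (SE 0.073, 95% interval -0.66 to -0.36, adjusted p = 0.000185), a 1.42-fold lower level that passed in 21 of 21 alternatives.

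The promoters of both feedback genes, which carry the same motif, are shown beside those of the chemokines (TNFAIP3 chr6:137867059-137867213, plus strand, and NFKBIA chr14:35404750-35404949, minus strand). Capitals mark matches of the kB consensus.
TNFAIP3: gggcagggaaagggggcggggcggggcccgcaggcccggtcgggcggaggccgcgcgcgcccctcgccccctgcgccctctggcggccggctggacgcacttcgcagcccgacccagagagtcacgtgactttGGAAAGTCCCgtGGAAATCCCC
NFKBIA: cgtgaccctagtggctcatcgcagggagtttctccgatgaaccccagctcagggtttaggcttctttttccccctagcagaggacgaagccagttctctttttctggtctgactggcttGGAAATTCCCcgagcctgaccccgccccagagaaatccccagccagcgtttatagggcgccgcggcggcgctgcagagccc
TNFAIP3 held 2 matches, whose first bases lie at -22 and -10 from the gene start of the table, and NFKBIA held 1, at -81.

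BIRC3 (chr11:102317450-102339403) encodes cIAP2, a ubiquitin ligase of TNF receptor complexes that protects cells from death. Its normalized counts were 311, 331 and 251 in DMSO, 141, 183 and 146 in VHL-r, and 138, 156 and 145 in R4VPL3-1. The treated libraries lay below the controls and overlapped each other. The log2 fold change was -0.92 (SE 0.13, adjusted p = 1.83e-05) after VHL-r and -1.01 (adjusted p = 3.84e-06) after R4VPL3-1, with a difference of -0.091 (95% interval -0.36 to 0.17).

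NFKB1 (chr4:102501330-102617302), which encodes a precursor that is cut to a DNA-binding subunit, fell in both treatments. Normalized counts were 3005, 2879 and 2858 in DMSO, 2435, 2401 and 2526 in VHL-r, and 2486, 2571 and 2528 in R4VPL3-1. Both treated groups were below the controls. Log2 fold changes were -0.25 (SE 0.046, adjusted p = 0.000453) after VHL-r and -0.20 (adjusted p = 0.0021) after R4VPL3-1, with a difference of 0.043 (95% interval -0.053 to 0.14).

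RELB (chr19:45001461-45038192), the partner of the NFKB2 product in the slower non-canonical arm, had 791, 686 and 681 normalized counts in DMSO, 599, 598 and 648 in VHL-r, and 680, 662 and 628 in R4VPL3-1. Both treated groups lay below the controls, by a margin of under 2 normalized counts for R4VPL3-1. The log2 fold change after VHL-r was -0.22 (SE 0.073, adjusted p = 0.036), and the call was lost in 4 of 21 alternatives, without DMSO replicate 1 (adjusted p = 0.212), without VHL-r replicate 1 (0.106), without VHL-r replicate 2 (0.132) and with no filter on low values (0.0512). After R4VPL3-1 it was -0.13 (adjusted p = 0.223), and the difference between the compounds was 0.094 (95% interval -0.059 to 0.25).

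NFKB2 (chr10:102394110-102402524), the other precursor gene, had 2751, 2395 and 2481 normalized counts in DMSO, 2537, 2591 and 2696 in VHL-r, and 2552, 2846 and 2486 in R4VPL3-1. The groups overlapped in every comparison. Log2 fold changes were 0.039 (95% interval -0.084 to 0.16) after VHL-r and 0.048 (95% interval -0.075 to 0.17) after R4VPL3-1, and the interval of the difference between compounds ran from -0.11 to 0.13.

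ICAM1 (chr19:10271093-10286615), a leukocyte adhesion molecule and a classical NF-kB target, had 1684, 1747 and 1906 normalized counts in DMSO, 1707, 1824 and 2068 in VHL-r, and 1742, 1836 and 1974 in R4VPL3-1. All 3 groups overlapped, and within each group replicate 3 was the highest. Log2 fold changes were 0.066 (95% interval -0.075 to 0.21) and 0.057 (95% interval -0.085 to 0.20), and the difference between the compounds had an interval of -0.15 to 0.13. A fall of the size seen for CXCL8 or BIRC3 lies outside these intervals.

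The promoters of BIRC3 and ICAM1 are given side by side (BIRC3 chr11:102317284-102317449, plus strand, and ICAM1 chr19:10270920-10271092, plus strand). Capitals mark the kB consensus in BIRC3 and GGNNNTTCC in ICAM1.
BIRC3: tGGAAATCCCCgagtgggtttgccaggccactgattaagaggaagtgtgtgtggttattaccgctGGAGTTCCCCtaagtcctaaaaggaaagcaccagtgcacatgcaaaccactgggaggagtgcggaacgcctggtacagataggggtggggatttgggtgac
ICAM1: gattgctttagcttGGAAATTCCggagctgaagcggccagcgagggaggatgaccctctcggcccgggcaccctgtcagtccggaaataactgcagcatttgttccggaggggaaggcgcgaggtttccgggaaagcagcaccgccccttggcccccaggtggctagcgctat
BIRC3 held 2 consensus matches, at -165 and -101 from the gene start of the table, and ICAM1 only the shorter form, at -159.

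**Figure D1:**
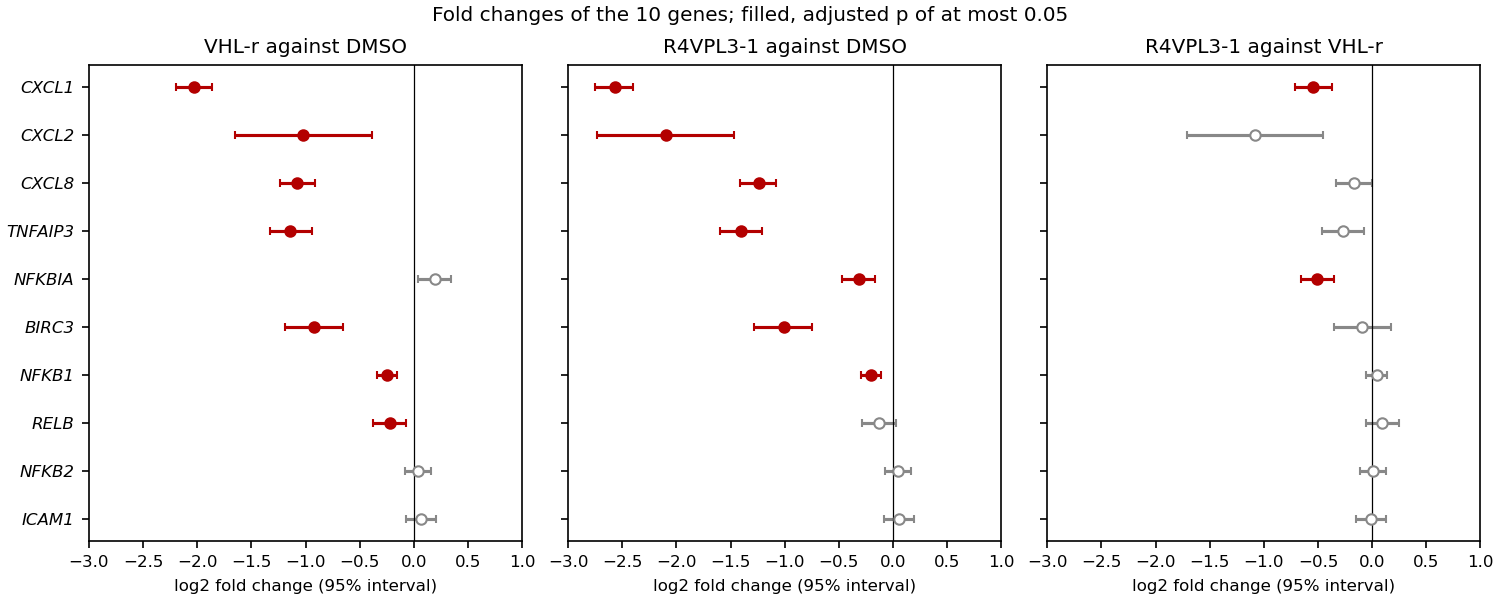
Log2 fold change (points) with 95% interval (whiskers) of the 10 genes in the 3 comparisons; filled points have an adjusted p of at most 0.05. CXCL1 is the most negative against DMSO in both treatments, at -2.03 and -2.57, and only CXCL1 and NFKBIA are filled between the compounds.

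Promoter windows from 250 bases before to 50 after the RefSeq start were matched for 9 of the 10 genes, with 12 windows in all. For the 7 genes whose stretches are printed, the RefSeq start lies 0 to 50 bases inside the gene start of the table. The kB consensus was present, on either strand, for 7 of these 9 genes and in 5.91% of 35116 promoters. A gene was counted if any of its windows matched, with 2 windows for NFKB1 and 3 for NFKB2. The shares of promoters are of single windows. The 10 genes were chosen by name for their place in the NF-kB pathway, so the counts beside these shares describe them and test nothing. GGNNNTTCC, also searched on both strands and overlapping most consensus matches, was present for 9 of 9 genes and in 20.1% of promoters. Both genes without the consensus, CXCL8 and ICAM1, carried TATAAA, at -31 and -30 from the RefSeq start, a motif present in 7.33% of promoters on the sense strand. Genes with the consensus included CXCL1, which fell most, and NFKB2, which did not pass the test. The NFKB2 matches lay only in the windows of its starts 2 and 3, at 362 to 1575 from the gene start of the table. Whether the motif bears on the fold changes was not tested. A match describes letters in a window and not binding.

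AU-rich elements in the 3′ UTR, which mark many cytokine transcripts for fast decay, were counted in the canonical transcripts. TATTTAT occurred in 7 of the 10 genes and in 36.9% of 12446 tested genes. CXCL2 held 8 copies in a 3′ UTR of 716 bases, CXCL8 and CXCL1 held 4 each, BIRC3 3, and TNFAIP3, NFKBIA and ICAM1 2 each. NFKB1, NFKB2 and RELB held 0. ICAM1, which passed the test in no comparison, carried as many copies as TNFAIP3, which fell in both treatments. Decay was not measured, and whether the copies bear on the fold changes was not tested.

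Levels were compared between genes per kilobase of canonical transcript. In DMSO the order was CXCL1 (1615 ± 93.8 normalized counts per kilobase, SD, n = 3), CXCL8 (1055 ± 71.9), NFKB2, NFKB1, ICAM1, NFKBIA, RELB, TNFAIP3, BIRC3 (43.3 ± 6.0) and CXCL2 (35.9 ± 10.1). Only the last pair, BIRC3 and CXCL2, overlapped between neighbours. After VHL-r, CXCL1 stood at 394.7 ± 10.4 per kilobase, below NFKB2, ICAM1, NFKB1, NFKBIA and CXCL8, and NFKBIA could not be separated from CXCL8, nor ICAM1 from NFKB1. After R4VPL3-1, CXCL1 stood at 271.8 ± 35.9 per kilobase and overlapped RELB at 290.8 ± 11.5. The chemokine pair that led the order in DMSO was thus below NFKB2, NFKB1 and ICAM1 in both treated groups.

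Other genes of the pathway were taken from a list of 86 genes in 6 roles, of which 72 entered the tests. After VHL-r, 6 of the 72 passed as higher and 20 as lower, beside 10.3% and 9.51% of all tested genes. The median log2 fold change was -0.098. After R4VPL3-1 the counts were 6 and 23, beside 13.1% and 11.8% of all genes, with a median of -0.091. Between the compounds 1 was higher and 4 were lower, beside 1.14% and 0.729% of all genes, with a median of -0.028. The same shares over all genes stand beside the counts by role that follow. For the genes named next, a pair of values gives the log2 fold changes after VHL-r and after R4VPL3-1, in this order.

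Among 11 tested chemokine and cytokine targets, 0 rose, and 5 fell after VHL-r and 4 after R4VPL3-1. LIF, a cytokine of the interleukin 6 family, had 5051, 3526 and 2958 normalized counts in DMSO, 1017, 1117 and 767 in VHL-r, and 476, 638 and 525 in R4VPL3-1. Its groups did not overlap, and its log2 fold changes were -1.97 and -2.79, with -0.82 between the compounds (adjusted p = 0.00213). CSF2, which encodes GM-CSF, fell (-1.25 and -1.86), as did CCL2, a monocyte chemokine (-0.54 and -0.88), and CSF1 (-0.35 and -0.27). CXCL3, a relative of CXCL1, fell after VHL-r (log2 fold change -1.40, adjusted p = 0.0162), while its R4VPL3-1 value of -1.1 had an adjusted p of 0.0511. Its normalized counts were low, at 20.9 to 35.4 in DMSO and 4.00 to 16.8 in VHL-r.

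Of 15 tested inhibitors and feedback genes other than NFKBIA and TNFAIP3, 1 rose and 4 fell after VHL-r, and 3 rose and 5 fell after R4VPL3-1. NFKBIE, another IkB gene, rose (0.46 and 0.56). BCL3, a nuclear IkB-like coactivator, had 431, 415 and 414 normalized counts in DMSO, 275, 275 and 271 in VHL-r, and 175, 221 and 170 in R4VPL3-1. The 3 groups of BCL3 were separate, and R4VPL3-1 was below VHL-r, with a log2 difference of -0.55 (adjusted p = 0.0029). TRAF1, a signalling adaptor, fell (-1.04 and -1.1), and the deubiquitinase genes OTUD7B (-0.56 and -0.48) and OTULIN (-0.24 and -0.18) fell too. Passing the test after R4VPL3-1 and not after VHL-r, a difference that itself did not pass, NFKBID had a log2 fold change of -0.49, ZC3H12A of 0.50 and TNFAIP8 of 0.36.

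Of 14 tested surface, survival and enzyme targets, 4 rose and 4 fell after VHL-r, and 2 rose and 7 fell after R4VPL3-1. IER3, an early response gene of cell survival, had 4793, 3845 and 4039 normalized counts in DMSO, 2755, 2912 and 2930 in VHL-r, and 947, 1176 and 1066 in R4VPL3-1. It fell (-0.55 and -1.99), and the log2 difference between the compounds was -1.43 (adjusted p = 5.06e-11). GADD45B, a stress gene, rose (0.56 and 1.12), with a log2 difference of 0.56 between the compounds (adjusted p = 0.00371). PTGS2, the inducible cyclooxygenase gene, fell (-0.60 and -0.99), as did the survival gene BCL2L1 (-0.40 and -0.43) and PTX3 (-0.43 and -0.63). IRF1, a transcription factor gene, rose (0.57 and 0.46). SOD2 and EFNA1 passed as higher after VHL-r only, with log2 fold changes of 0.15 and 0.38. BCL2A1, CD83 and NINJ1 passed as lower after R4VPL3-1 only, with -0.67, -0.32 and -0.21. For none of these genes did the difference between the compounds itself pass the test. SDC4 was lower in R4VPL3-1 than in VHL-r, with a log2 difference of -0.25 (adjusted p = 0.0403).

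Of 17 tested receptors and adaptors, 1 rose and 5 fell in each treatment. Over all tested genes, 9.51% were lower after VHL-r and 11.8% after R4VPL3-1. TNFRSF1A, the main TNF receptor, fell (-0.34 and -0.45), as did BIRC2 (-0.33 and -0.30), TRAF3 (-0.17 and -0.26) and LTBR (-0.16 and -0.15). TRAF6 rose (0.36 and 0.20). TRAF2 passed as lower after VHL-r only, with -0.27, and MYD88 after R4VPL3-1 only, with -0.21. In neither gene did the difference between the compounds pass the test. Of 13 kinase and linear ubiquitin ligase genes 2 fell in each treatment, TAB3 (-0.55 in both) and TAB2 (-0.16 and -0.14). RELA and REL, the remaining subunit genes, passed the test in no comparison, and RELA had log2 fold changes of -0.094 (95% interval -0.22 to 0.034) and -0.11 (95% interval -0.24 to 0.014).

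**Figure D2:**
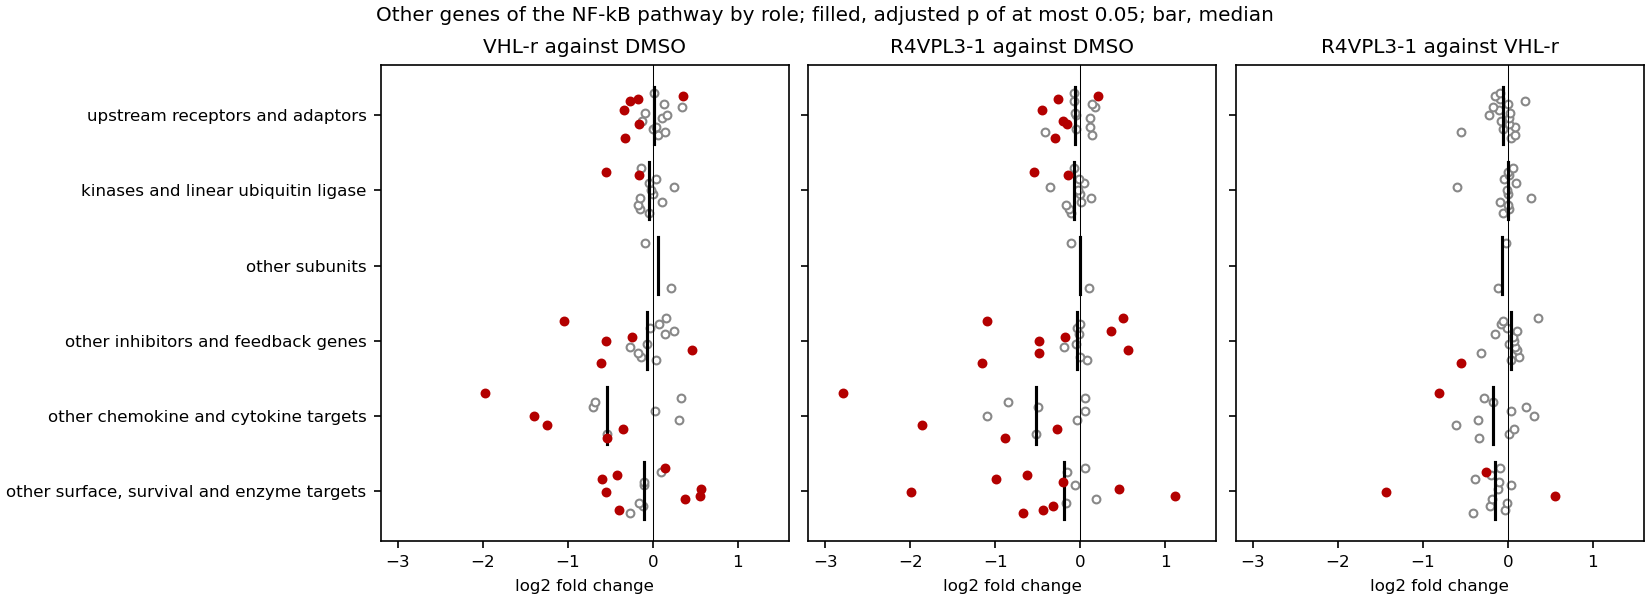
Log2 fold change of the 72 other tested genes of the pathway, 1 point per gene, by role and comparison; filled points have an adjusted p of at most 0.05 and bars are medians. The chemokine and cytokine targets have medians of -0.54 after VHL-r and -0.52 after R4VPL3-1, and the receptors and adaptors lie near 0, at 0.015 and -0.064.

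The genes most like CXCL8 and NFKBIA over the 9 libraries were found by Pearson correlation of log2 values, as a description in which treatment and library are shared. CXCL8 was closest to ABHD17C (r = 0.994), MANCR (0.993), KANK1 (0.992), MEOX2 (0.992) and PLK2 (0.99). NFKBIA was closest to MEX3C (r = 0.964), to a gene without a symbol (ENSG00000250954, 0.955), to TRIB1 (0.950), GSPT2 (0.940) and UGDH (0.936). TRIB1 had the widest difference of these between the compounds, with a log2 fold change of 0.34 after VHL-r and -0.94 after R4VPL3-1.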

How the data were processed

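Poly(A) RNA of 9 A375R libraries was sequenced by the authors in single reads of 100 bases, aligned to GRCh38 (Ensembl 109) with STAR 2.5.3a and counted with htseq-count 2.0.2 in reverse mode. The authors deposited 1 table of normalized signal, the counts of each gene divided by DESeq2 1.36.0 size factors. Values were whole reads within 0.1 read for 100% of entries, and size factors were 0.9341 to 1.1012. The main test was limma 3.58.1 (R 4.3.3, trend option, all 9 libraries in one single-factor fit) on log2(value + 1), over 15230 genes (mean normalized count 10 or more), with p-values adjusted after Benjamini and Hochberg and a threshold of 0.05. The pseudocount shrinks fold changes of weakly expressed genes. Alternatives were count tests of the recovered reads by DESeq2 1.42.0 and edgeR 4.0.16, other scalings, filters and pseudocounts, and libraries left out. The statistics were tested on simulated data. The p-values rest on the spread between libraries within groups, pooled over the 3 groups and moderated towards a trend over all tested genes. An exact test of 3 against 3 cannot go below 0.1, so none was used. The 10 genes and the lists were chosen with earlier results of these data known. All 10 genes, every pathway gene called in any comparison, and the 5 genes most like NFKBIA and CXCL8 are named. Promoters are RefSeq entries (GRCh38.p14), transcripts GENCODE 44. No column of the table was left unused.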

Additional observations from a re-analysis of the deposited data

How the results depend on the processing

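Of 627 values of the 10 genes under alternatives, 604 kept their direction and side of the threshold, 10 lost their call, 2 gained one and 11 changed sign, the latter in values that did not pass the test. Sign changes on leaving out 1 library were in NFKB2 after VHL-r (range -0.0032 to 0.097), ICAM1 after VHL-r (-0.010 to 0.13), NFKB2 after R4VPL3-1 (-0.011 to 0.11), and, between the compounds, NFKB2 (-0.050 to 0.048), BIRC3 (-0.16 to 0.023) and ICAM1 (-0.071 to 0.067), the last also under upper quartile scaling (0.00026). At an adjusted p of at most 0.01, 1885 genes were called after VHL-r, 2494 after R4VPL3-1, and 18 pathway genes after R4VPL3-1. With libraries left out, genes called between the compounds ranged from 182, without R4VPL3-1 replicate 1, to 357 with 1 library left out. With limma's robust option 2 pathway genes were called between the compounds; the cause was not tested. Leaving out replicate 3 of each treatment was chosen after seeing the data; it left 359 genes called between the compounds and 6, 7 and 2 of the 10 genes in the 3 comparisons, and turned NFKB2 after VHL-r to -0.0016 and ICAM1 between the compounds to 0.019, with NFKB2 between the compounds at 0.072.

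Replicate numbers are shared between groups, and whether they pair libraries was checked: deviations of same-numbered libraries correlated at -0.006 to 0.121 over 9 pairs, and 12 of 18 library and group combinations were closest to their own number. Since not every same-numbered pair passed a correlation of 0.1, the numbers were not used to pair libraries, although replicate 3 stood apart on the third principal component in each treatment. With the replicate block, 3451, 4241 and 389 genes were called in the 3 comparisons, and 8, 7 and 2 of the 10 genes, the added one being NFKBIA after VHL-r (adjusted p = 0.0359). CXCL2 had the lowest depth of the 10, with 8 reads in its lowest libraries, and was not tested at a minimum mean of 50.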
